A study of Mus musculus with 4 samples.

Results

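The ventricles of Mef2a knockout mice were compared with the ventricles of wild type mice, 1 array a side, over every gene that the arrays named and read above a floor. The ratio used throughout is the log2 intensity of the knockout-labelled ventricular array minus that of the wild type ventricular array, so a positive ratio means higher in knockout-labelled ventricles. Of 18781 genes with 1 symbol, 9712 reached the floor on the brighter of the 2 ventricular arrays, the floor being the median of all values in the table (5.71 on the log2 scale). Genes whose ratio reached 1.5-fold in size (0.58 on the log2 scale) are called higher or lower. This held for 117 of the 9712 genes, or 1.20%, of which 50 (0.515%) were higher and 67 (0.690%) were lower.

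The 4 arrays of the study carried RNA from knockout ventricles (Mef2a-/-), knockout atria (Mef2a-/-), wild type ventricles (Mef2a+/+) and wild type atria (Mef2a+/+). Each array carried an equimolar pool of total RNA from 7 mice of both sexes, 2 months old, with no treatment named in the labels. The strain, the part of Mef2a that was deleted and whether the same mice gave both chambers are not stated in the sources used here, and the labels name no tissue to which the knockout was restricted. With 1 pooled array a group there is no replicate spread, and no difference below has a test, an error or a p-value: each is a description of these pools. In whole tissue, fewer cells of a type and less RNA per cell cannot be told apart.

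MEF2A is a MADS-box transcription factor of the myocyte enhancer factor 2 family, whose members bind AT-rich sites in the promoters and enhancers of muscle genes. The family acts in cardiac and skeletal muscle together with GATA, NKX2-5 and serum response factor, and is held in check by class IIa histone deacetylases until calcium and kinase signals release it. Its known targets in muscle include genes of the contractile apparatus, of energy supply and of the costamere, the structure that ties the Z-disc to the cell membrane.

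Mef2a itself was examined before other genes. Its probe set stood at 10.34 in knockout-labelled against 10.28 in wild type ventricles, and at 10.41 in knockout-labelled against 10.32 in wild type atria (log2 intensity). On neither knockout-labelled array was the signal lower than on its wild type counterpart. A probe set that summarises probes spread over a gene may read exons outside a deletion, so this signal does not check the genotype labels. All directions below rest on the labels. Of the 7 named genes on each side of Mef2a on chromosome 7, none passed 1.5-fold, with ratios between −0.29 and 0.24. Aldh1a3, Asb7, Lins1, Cers3, Adamts17, Ttc23, Pgpep1l and Fam169b were below the floor in ventricles and could not be called. The neighbours above the floor lay between −0.08 (Igf1r) and 0.24 (Synm). The other family members were Mef2c at 9.10 in knockout-labelled against 9.06 in wild type ventricles, Mef2d at 9.21 against 9.25 in wild type ventricles, and Mef2b, which lay below the floor. Among 25 genes of the family and its regulators above the floor, 0 passed the fold, and the lowest were the calcium/calmodulin kinase gene Camk2g (−0.40), the p38 kinase activator Map2k6 (−0.36) and the calcineurin-responsive factor Nfatc2 (−0.35). The highest was Rcan1 (0.35), a calcineurin inhibitor that is itself induced by calcineurin.

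Most genes read nearly the same on both ventricular arrays. The median ratio over the 9712 genes was 0.00 with a standard deviation across genes of 0.19, the central 95% of ratios lay between −0.33 and 0.32, and 90.5% were within 0.25. The spread depended on level: the standard deviation was 0.25 in the dimmest of 5 equal bins of genes, which held 22 of the higher and 27 of the lower genes, and 0.14 in the brightest bin, which held 7 and 6. Past 2-fold were 14 higher and 22 lower genes, and past 4-fold 0 higher and 5 lower. Of the 50 higher genes 19 were below the floor in wild type ventricles, and of the 67 lower genes 27 were below it in knockout-labelled ventricles. As a view of scatter at background, 1068 olfactory receptor genes had a median level of 2.91 in wild type ventricles and a standard deviation of ratios of 0.21, and 17 of them differed by 1.5-fold at any level, the largest by 1.35 on the log2 scale. With no floor, 99 higher and 121 lower of all 18781 genes passed the same fold, beside 117 of the 9712 genes above the floor. Genes at background thus passed it about as often, so passing it alone does not set a gene apart from background scatter.

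**Figure D1:**
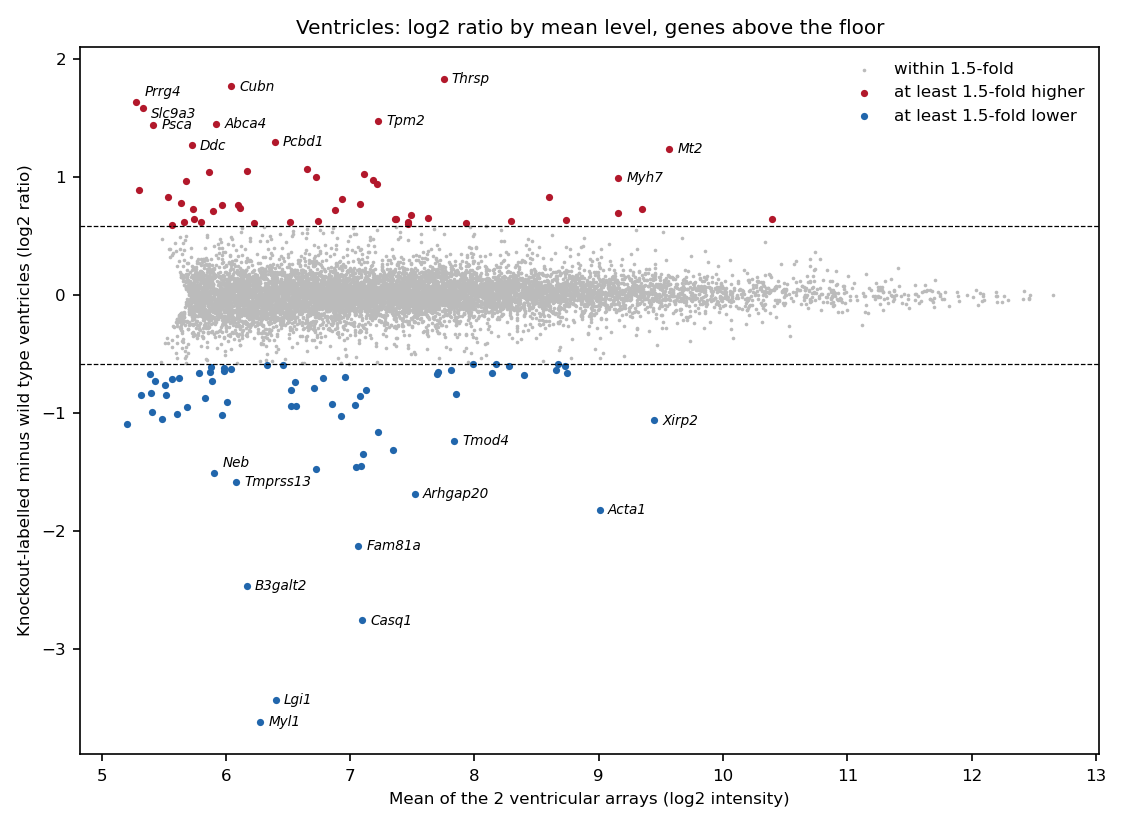
Each point is a gene above the floor in ventricles, with its mean log2 intensity over the 2 ventricular arrays on the horizontal axis and its log2 ratio, knockout-labelled minus wild type, on the vertical axis. Red points are the 50 genes at least 1.5-fold higher in knockout-labelled ventricles, blue points the 67 at least 1.5-fold lower, grey points the rest, dashed lines 1.5-fold. The cloud narrows with level, and Myl1 and Lgi1 lie lowest.

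Among the 9 genes with the lowest ratios, Myl1, Casq1, Acta1 and Neb are better known from skeletal muscle, while Lgi1, B3galt2, Fam81a, Arhgap20 and Tmprss13 are on none of the muscle gene lists. Myl1 encodes the essential light chain of fast skeletal myosin. It read 4.47 in knockout-labelled against 8.09 in wild type ventricles, and 5.66 in knockout-labelled against 9.43 in wild type atria, a ratio of −3.62 (12.3-fold lower) in ventricles and −3.77 in atria. Myl1 was thus below the floor in both knockout-labelled chambers and well above it in both wild type chambers. Casq1, the calcium-storing calsequestrin of skeletal muscle sarcoplasmic reticulum, read 5.72 in knockout-labelled against 8.48 in wild type ventricles (−2.76, 6.78-fold lower), and 5.02 against 6.93 in wild type atria. Acta1, the skeletal type of alpha actin, read 8.10 in knockout-labelled against 9.92 in wild type ventricles (−1.82, 3.54-fold lower), while in atria it read 6.84 against 7.42 in wild type. Neb, or nebulin, the giant ruler protein of skeletal thin filaments, read 5.15 in knockout-labelled against 6.66 in wild type ventricles (−1.51), and in atria 6.49 against 7.10 in wild type.

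Further sarcomere genes followed with smaller differences. Tmod4 caps the pointed end of thin filaments in striated muscle and read 7.21 in knockout-labelled against 8.45 in wild type ventricles (−1.24). Mybpc2, the fast skeletal form of myosin-binding protein C, read 6.41 in knockout-labelled against 7.44 in wild type ventricles (−1.03) and was dim in atria, at 5.51 against 5.73 in wild type. Xirp2 encodes a Xin repeat protein of the costamere and intercalated disc and is a known MEF2A target. It read 8.91 in knockout-labelled against 9.98 in wild type ventricles (−1.06), and 6.76 in knockout-labelled against 9.0 in wild type atria (−2.24), so that the atrial pair differed more than the ventricular one.

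A pair of sarcomere genes ran the other way. Tpm2, beta tropomyosin, coils along the actin filament and is a form of skeletal muscle that the fetal heart also makes. It read 7.96 in knockout-labelled against 6.48 in wild type ventricles (1.47, 2.78-fold higher). In atria Tpm2 read 9.25 against 9.42 in wild type, so the atrial pair did not share the difference. Myh7, the slow beta myosin heavy chain that rodent ventricles use before birth and again under load, read 9.65 in knockout-labelled against 8.66 in wild type ventricles (0.99, 1.99-fold higher), and in atria 7.53 against 7.51 in wild type. The adult heavy chain Myh6 read 12.18 in knockout-labelled against 12.23 in wild type ventricles (−0.06).

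Promoter sequences are shown for 3 of the lower muscle genes, because the factor named in the genotype binds such stretches of DNA. Xirp2 and Acta1 are the named lower genes whose windows held a match, and Myl1 had the lowest ratio. The 3 windows therefore do not stand for the lower genes as a whole. They run from 250 bases before to 50 bases after the RefSeq gene start in mouse build GRCm38.p6, 5′ to 3′ on the strand of the gene, in lower case. Capitals mark the match to the MEF2 site in Xirp2 (chr2:67445752-67446051, plus strand) at position −74 from the start, and the match to the CArG box, the site of the related MADS-box protein serum response factor, in Acta1 (chr8:123894726-123895025, minus strand) at −73. Myl1 (chr1:66945007-66945306, minus strand) held neither.
Xirp2: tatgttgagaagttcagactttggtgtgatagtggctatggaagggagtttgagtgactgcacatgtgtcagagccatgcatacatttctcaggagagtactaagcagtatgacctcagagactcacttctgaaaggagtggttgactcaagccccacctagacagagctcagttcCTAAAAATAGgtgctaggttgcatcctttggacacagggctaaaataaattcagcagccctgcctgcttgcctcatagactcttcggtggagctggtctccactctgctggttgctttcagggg
Acta1: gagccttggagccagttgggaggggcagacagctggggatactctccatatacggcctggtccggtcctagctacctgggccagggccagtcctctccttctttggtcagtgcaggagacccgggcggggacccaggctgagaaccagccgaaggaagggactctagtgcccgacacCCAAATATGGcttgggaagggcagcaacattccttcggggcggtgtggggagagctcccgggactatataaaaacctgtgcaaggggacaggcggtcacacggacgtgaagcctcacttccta
Myl1: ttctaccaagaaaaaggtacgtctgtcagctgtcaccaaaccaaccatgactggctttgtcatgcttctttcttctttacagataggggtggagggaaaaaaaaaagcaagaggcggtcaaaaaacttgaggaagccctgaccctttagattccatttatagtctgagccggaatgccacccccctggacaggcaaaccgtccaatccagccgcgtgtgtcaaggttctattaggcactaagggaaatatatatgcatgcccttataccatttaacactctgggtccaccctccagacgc
Both motifs are AT-rich and were searched by their usual consensus on both strands. The MEF2 site was found in 2 of 52 lower genes with a window (3.85%) and in 1 of 35 higher genes (2.86%, Mal), beside 2.38% of 7885 genes above the floor and 3.70% of all 27025 genes with a window. The CArG box was found in 1 of 52 lower genes (1.92%, Acta1) and 1 of 35 higher genes (2.86%, Tbc1d9), beside 1.70% of the genes above the floor. These shares are counts of letters in short windows, and a distant enhancer lies outside them.

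**Figure D2:**
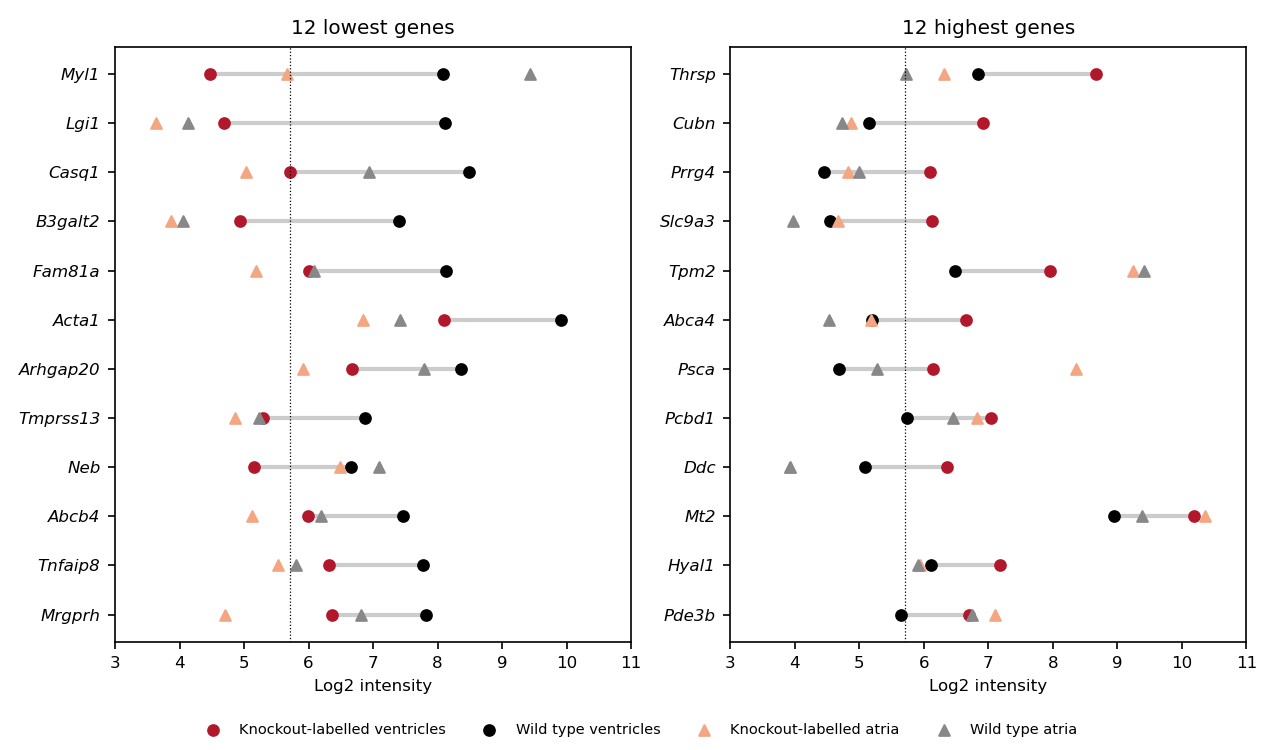
Log2 intensity on each of the 4 arrays for the 12 genes with the lowest ratios and the 12 with the highest ratios in ventricles, circles for ventricles and triangles for atria, red tones for knockout-labelled and black or grey for wild type. The dotted line is the floor of 5.71, and a grey bar joins the ventricular pair of each gene. Myl1 and Casq1 are low on both knockout-labelled arrays, whereas Lgi1 and B3galt2 are above the floor on the wild type ventricular array alone, and points at the same level hide each other.

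Against these single genes, the contractile gene lists as wholes stood close to the median of all genes. Of 9 myosin light chain genes above the floor, Myl1 alone passed the fold and the list median was −0.01, with the ventricular light chains Myl2 at −0.01 and Myl3 at 0.04. Of 8 actins and tropomyosins the median was 0.01, and the cardiac alpha actin gene Actc1 read 12.65 in knockout-labelled and 12.65 in wild type ventricles. Among 16 genes of nebulins, tropomodulins, leiomodins and thin filament assembly, Neb and Tmod4 were lower and the median was −0.05, the next lowest being the Kelch proteins Klhl41 (−0.49) and Klhl40 (−0.39). Of 9 thick filament and M-band genes Mybpc2 passed the fold, with Obsl1 at −0.45 and a median of −0.01. All 5 troponin genes above the floor lay between −0.20 and −0.01, with 0 past the fold.

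The Z-disc, membrane and disc lists were quieter still. Of 29 Z-disc and Xin genes 1 passed, Xirp2, with a median of 0.02, and the next were the LIM-domain genes Pdlim3 (−0.53) and Fhl1 (0.38), while the sister gene Xirp1 was at 0.16. None of 25 costamere and dystrophin complex genes passed, in a range from −0.27 to 0.32. None of 19 intercalated disc genes passed, the highest being the connexin gene Gja5 (0.51). For a list of 20 genes the share of 1.20% seen over all genes amounts to less than 1 gene, so a list with 1 member past the fold is not set apart by its count.

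A list of 30 genes known as MEF2 targets was read beside these, all of them above the floor. Myl1, Acta1 and Xirp2 were lower past the fold, Myh7 was higher, and the other 26 were not past it, among them the muscle creatine kinase gene Ckm (0.03), the myoglobin gene Mb (−0.03), the desmin gene Des (0.07) and the glucose carrier gene Slc2a4 (−0.08). The 4 genes past the fold were 13.3% of the list, beside 1.20% of all genes above the floor. The list was fixed with earlier results of these data known, so this share is not a test. The median of the list was −0.01, and 13 members were positive and 17 negative. None of 27 cardiac transcription factor genes passed the fold, with a median of 0.00 and a range from −0.32 to 0.28.

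**Figure D3:**
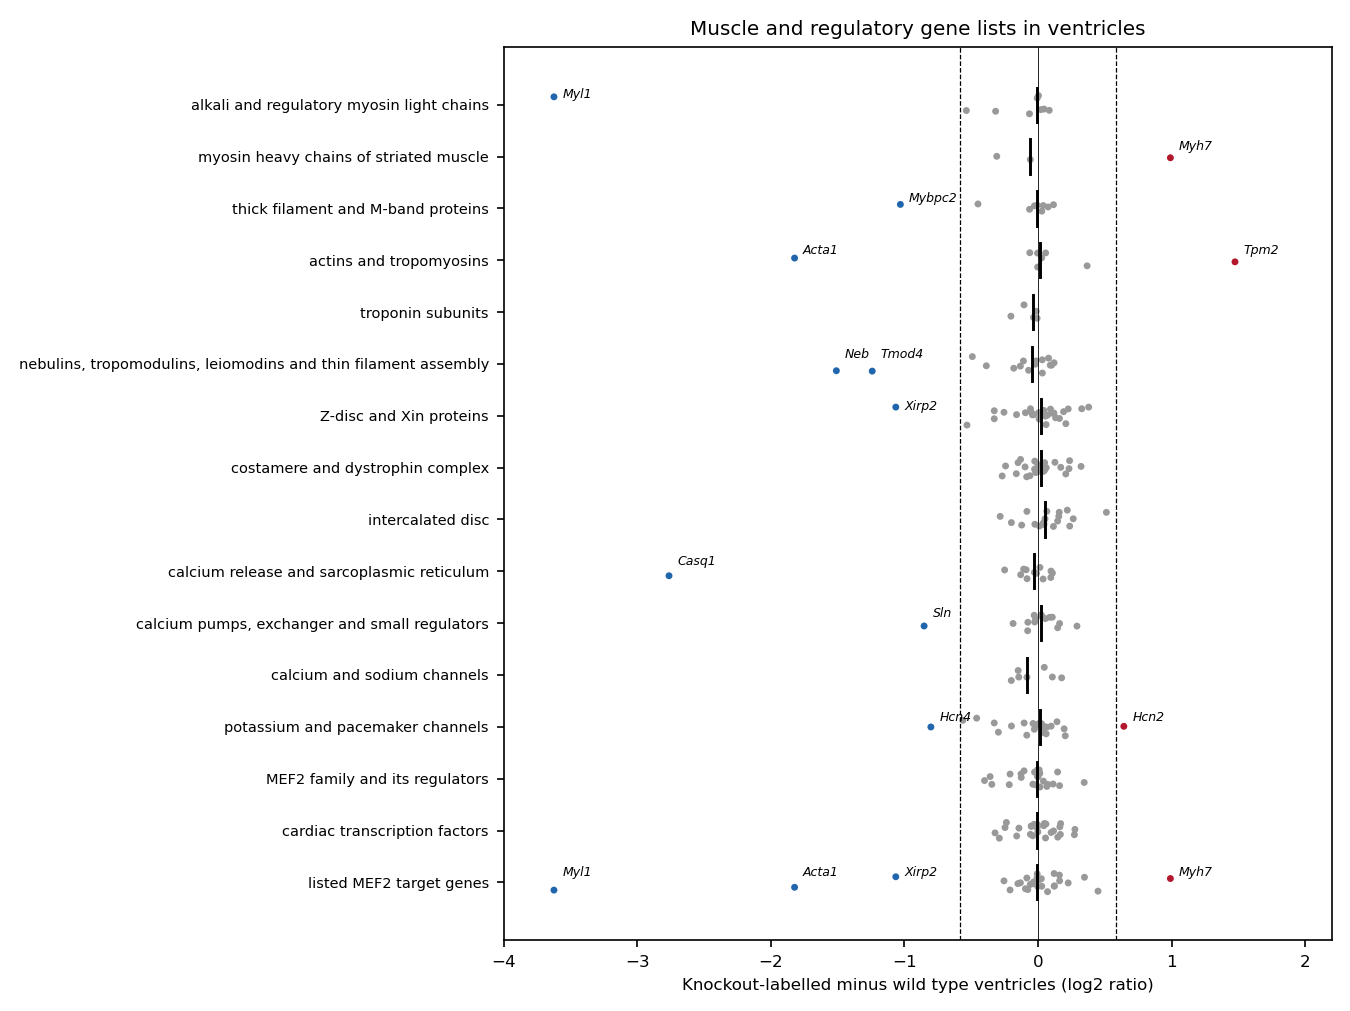
Log2 ratio in ventricles, knockout-labelled minus wild type, of every member above the floor in lists of muscle, calcium, channel and transcription factor genes, 1 row a list, with the black bar at the list median and dashed lines at 1.5-fold. Named points are those past 1.5-fold. The medians stand near 0 in each row, and the labelled genes are isolated points.

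Markers of the dissected tissue were checked beside these genes. All 14 ventricular cardiomyocyte markers were above the floor, with a median of 0.00 and a summed linear signal in knockout-labelled ventricles that was 1.01 times that in wild type ventricles, and Bdh1 (0.83) was the 1 marker past the fold. Of 12 skeletal muscle markers 11 lay below the floor, including Myh1, Myh2, Myh4, Mylpf, Tnnt3 and Ryr1, and the exception, the fast troponin I gene Tnni2, read 5.64 in knockout-labelled against 5.85 in wild type ventricles. Markers below the floor give no measure of skeletal muscle content, and its part in the ratios of Myl1, Casq1, Acta1, Neb and Mybpc2 was not tested.

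Calcium and electrical genes gave few differences beyond Casq1. Of 13 genes of calcium release and the sarcoplasmic reticulum Casq1 alone passed, with a median of −0.03. Its cardiac counterpart Casq2 read 10.64 in knockout-labelled against 10.53 in wild type ventricles, and the release channel Ryr2 11.23 against 11.36 in wild type. Sln, sarcolipin, a small inhibitor of the calcium pump and abundant in atria, read 5.09 in knockout-labelled against 5.95 in wild type ventricles (−0.85), in both cases near the floor. In atria it read 12.04 against 12.09 in wild type. Of 15 genes of calcium pumps, exchanger and small regulators Sln alone passed, with a median of 0.02, and of 7 calcium and sodium channel genes above the floor 0 passed.

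The pacemaker channels split. Hcn4, which carries the pacemaker current of the sinus node, read 6.13 in knockout-labelled against 6.93 in wild type ventricles (−0.80). Hcn2, the form that prevails in ventricle, read 7.69 in knockout-labelled against 7.05 in wild type ventricles (0.64). These were the members past the fold among 24 potassium and pacemaker channel genes, whose median was 0.02, and the transient outward channel gene Kcnd2 (−0.56) and the muscarinic-gated channel gene Kcnj3 (−0.46) came next. Best3, of the bestrophin family of anion channels, was higher at 6.35 against 5.59 in wild type ventricles (0.76). Fgf14, an intracellular member of the fibroblast growth factor family that binds sodium channels, was lower at 4.90 against 5.90 in wild type ventricles (−1.0), with an atrial ratio of −1.0. Tesc, tescalcin, a calcium-binding partner of the sodium-proton exchanger, was lower at 8.41 against 9.08 in wild type ventricles (−0.67), with an atrial ratio of 0.53.

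Lgi1 ranked next to Myl1 among the lower genes. It encodes a secreted leucine-rich repeat protein that links ADAM receptors at synapses and is mutated in an inherited epilepsy. Lgi1 read 4.68 in knockout-labelled against 8.12 in wild type ventricles (−3.44, 10.8-fold lower). In atria both values were below the floor, at 3.63 against 4.13 in wild type. Its receptor genes Adam22 (0.08) and Adam11 (−0.16) were not past the fold. B3galt2, a beta-1,3-galactosyltransferase that builds sugar chains of glycoproteins and glycolipids, showed the same chamber pattern, at 4.93 in knockout-labelled against 7.40 in wild type ventricles (−2.47, 5.54-fold lower) and below the floor in atria, at 3.86 against 4.05 in wild type. Of 10 galactosyltransferase genes above the floor it alone passed the fold.

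Fam81a read 6.0 in knockout-labelled against 8.13 in wild type ventricles (−2.13, 4.37-fold lower), and 5.18 against 6.08 in wild type atria. Arhgap20 read 6.67 in knockout-labelled against 8.36 in wild type ventricles (−1.69) and 5.92 against 7.78 in wild type atria (−1.87). Tmprss13, a membrane-bound serine protease, read 5.29 in knockout-labelled against 6.88 in wild type ventricles (−1.59), and was below the floor in atria, at 4.86 against 5.23 in wild type.

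Abcb4, the phosphatidylcholine flippase known from bile formation, read 5.98 in knockout-labelled against 7.46 in wild type ventricles (−1.48), and 5.13 against 6.20 in wild type atria. Tnfaip8, a protein induced by tumour necrosis factor, read 6.32 in knockout-labelled against 7.77 in wild type ventricles (−1.46), while in atria it stood at 5.53 against 5.80 in wild type. Mrgprh, a Mas-related orphan G protein-coupled receptor, read 6.37 in knockout-labelled against 7.82 in wild type ventricles (−1.45) and 4.70 against 6.80 in wild type atria (−2.10). Arhgap20 and Mrgprh thus had larger atrial than ventricular ratios, and Tmprss13 and Tnfaip8 had ratios past the fold in ventricles alone.

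Cyclic AMP genes past the fold lay on both sides. Pde7a, a cyclic AMP phosphodiesterase, was lower at 6.69 in knockout-labelled against 8.0 in wild type ventricles (−1.31), with an atrial ratio of −0.83. Pde3b, the phosphodiesterase through which insulin restrains fat breakdown, was higher at 6.70 against 5.64 in wild type ventricles (1.06). The median of 25 phosphodiesterase and cyclase genes was −0.01. Gnb3, a G protein beta subunit, was higher at 7.63 against 6.60 in wild type ventricles (1.03) and at 6.47 against 5.76 in wild type atria (0.72). Npr3, the clearance receptor of natriuretic peptides, was higher at 7.83 against 7.15 in wild type ventricles (0.68).

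Further lower genes with roles in signalling and protein turnover were single members of different families. Cyfip2, of the WAVE complex that drives actin branching, was at −1.35 in ventricles and at 0.48 below the floor in atria. Plcg2, a phospholipase C of immune cell receptors, was at −0.61, and Acp1, a low molecular weight tyrosine phosphatase, at −0.64 (atria −1.12). Asb4, a substrate adaptor of ubiquitin ligases, was at −1.02 (atria −1.3) and was the member past the fold among 22 genes of muscle ubiquitin ligases and the ASB family. Rnf150, a RING-domain protein, was at −0.71 (atria −0.77), and Intu, a planar polarity protein needed for cilia, at −0.79 (atria −0.79).

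Growth factor and matrix genes past the fold lay on both sides. The Wnt inhibitor Wif1 read 5.39 in knockout-labelled against 6.27 in wild type ventricles (−0.88), and the cardiac growth factor Fgf16 8.38 against 8.96 in wild type (−0.59). Trabd2b, which cuts Wnt proteins, was at −0.64. Ccn2, also called connective tissue growth factor, was higher at 9.50 against 8.81 in wild type ventricles (0.69) and at 11.08 against 10.22 in wild type atria (0.86). Of 31 growth factor genes and antagonists above the floor these were the members of the list past the fold apart from Trabd2b, which is not on it, and the median was −0.07. The chemokine gene Cxcl12 (−0.84), the follistatin-like gene Fstl4 (−1.01), the fibulin gene Efemp1 (−0.69), the metalloproteinase inhibitor gene Timp4 (−0.68), the coagulation inhibitor gene Tfpi (−0.61), Mamdc2 (−0.72) and Gpnmb (−0.62), a membrane glycoprotein of macrophages, were lower. Hyal1, a lysosomal hyaluronan-degrading enzyme, was higher at 7.18 against 6.12 in wild type ventricles (1.07), Ndnf, a secreted protein of endothelial and nerve cells, at 0.62 (atria 0.94), and Fgl2, a membrane prothrombinase, at 0.63.

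Fibroblast and macrophage markers had small negative ratios beside these lower matrix and immune genes. All 14 measured fibroblast markers had negative ratios, between −0.34 and −0.03, with 0 past the fold, a median of −0.15 and a summed linear signal in knockout-labelled ventricles 0.909 times that in wild type ventricles. Of 12 macrophage markers above the floor 10 were negative, with a median of −0.12 and a summed signal over all 14 measured 0.949 times that in wild type, while the lysozyme gene Lyz1 was past the fold the other way (0.61). Their part in the lower ratios of Cxcl12, Efemp1, Mamdc2, Gpnmb, Clec12a and Plcg2 was not tested. Endothelial markers had a median of 0.03, with Npr3 past the fold among 15. Smooth muscle and pericyte markers had a median of −0.13, with 7 of 10 above the floor negative and 0 past the fold. Their summed signal over all 12 measured was 1.02 times that in wild type ventricles, and Acta2 was the highest at 0.37.

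Metabolic genes past the fold lay on both sides, and Thrsp had the highest ratio of all genes. Thrsp, a nuclear regulator of fatty acid synthesis that thyroid hormone and feeding induce in liver and fat, read 8.67 in knockout-labelled against 6.84 in wild type ventricles (1.83, 3.56-fold higher), and 6.31 against 5.72 in wild type atria. Plin2, which coats lipid droplets, read 9.06 in knockout-labelled against 8.42 in wild type ventricles (0.64). Cidea, a droplet protein of fat tissue, read 7.78 against 7.16 in wild type ventricles (0.62). The stearoyl-CoA desaturase gene Scd2 read 8.24 against 7.62 in wild type ventricles (0.61).

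These were 4 of 31 lipid synthesis and lipid droplet genes above the floor (12.9%, beside 0.515% of all genes for higher). The list was fixed with earlier results of these data known, so this share does not test whether such genes stand apart. Of the list 24 were positive and 7 negative and the median was 0.06. Enzymes of fatty acid synthesis were at Fasn −0.04, Acly 0.00 and Acacb 0.03, and the carbohydrate-response factor gene Mlxipl was the lowest at −0.50. Of 10 adipocyte markers measured 7 were below the floor, among them Adipoq at 3.96 in knockout-labelled against 4.07 in wild type ventricles, Lep, Retn, Plin1 and Cidec. The 3 above it were Car3 (0.74, past the fold), Lipe (0.14) and Slc36a2 (−0.32), with a median of 0.14 that turned to −0.08 over all 10. Their part in the ratios of the lipid genes was not tested.

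Enzymes of other pathways were higher as single genes. Bdh1, the mitochondrial dehydrogenase that opens ketone body use and 1 of the ventricular cardiomyocyte markers, read 9.01 in knockout-labelled against 8.18 in wild type ventricles (0.83), and was below the floor in atria. Glul, glutamine synthetase, read 10.71 against 10.07 in wild type ventricles (0.65) and had an atrial ratio of 0.47. Pcbd1, which recycles the tetrahydrobiopterin cofactor and also serves as a partner of HNF1 factors, read 7.04 against 5.74 in wild type ventricles (1.3) and 6.83 against 6.45 in wild type atria. Ddc, aromatic amino acid decarboxylase, read 6.36 against 5.09 in wild type ventricles (1.27) and was far below the floor in atria, at 3.93 in knockout-labelled and 3.93 in wild type.

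Pcbd1 and Ddc were the genes past the fold among 8 of tetrahydrobiopterin and amine synthesis above the floor, whose median was −0.06. Shmt1, serine hydroxymethyltransferase of the cytosol, was at 0.71, whereas Aldh1l2, a folate enzyme of mitochondria, was at −0.63 (atria −0.74). The mitochondrial aldehyde dehydrogenase gene Aldh1b1 was at 1.0, and the aldo-keto reductase genes Akr1b8 and Akr1c14 were at 0.83 and −0.91. Slc2a12, a glucose carrier of heart and muscle, read 6.65 in knockout-labelled against 7.51 in wild type ventricles (−0.86) and had an atrial ratio of −1.01. It alone passed the fold among 26 genes of glucose uptake and glycolysis, whose median was 0.05. Car3, carbonic anhydrase 3 of muscle and fat and 1 of the adipocyte markers above, was higher at 6.48 against 5.74 in wild type ventricles (0.74), while in atria it was lower at 5.5 against 7.58 in wild type (−2.09).

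The core pathways of energy supply showed no member past the fold. All 44 oxidative phosphorylation genes lay between −0.09 and 0.14 with a median of −0.01, 27 citrate cycle genes between −0.22 and 0.13 with a median of 0.01, and 33 genes of fatty acid uptake and oxidation between −0.20 and 0.31 with a median of 0.04. The 23 PPAR, PGC-1, ERR and creatine kinase genes had 0 past the fold and a median of 0.04.

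Several single genes of membrane transport and uptake were below the floor in wild type ventricles and above it in knockout-labelled ventricles. Cubn, cubilin, the receptor that takes up intrinsic factor and albumin in gut and kidney, read 6.93 in knockout-labelled against 5.16 in wild type ventricles (1.77, 3.41-fold higher), and was below the floor in atria at 4.88 against 4.73 in wild type. Slc9a3, the sodium-proton exchanger of absorptive epithelia, read 6.13 against 4.54 in wild type ventricles (1.59, 3.0-fold higher), and in atria 4.67 against 3.98 in wild type. Abca4, a retinoid flippase of photoreceptors, read 6.65 against 5.20 in wild type ventricles (1.45), and in atria 5.18 against 4.53 in wild type. Prrg4, a transmembrane protein with a vitamin K-dependent Gla domain, read 6.10 against 4.46 in wild type ventricles (1.64), and in atria 4.82 against 4.99 in wild type.

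Psca, a GPI-anchored Ly6 family protein known from prostate and stomach, read 6.14 in knockout-labelled against 4.69 in wild type ventricles (1.44) and 8.35 against 5.28 in wild type atria (3.07). Aqp4, the water channel of astrocytes and muscle membranes, read 6.38 against 5.34 in wild type ventricles (1.04) and 5.89 against 4.40 in wild type atria (1.49). Aqp8 read 5.74 against 4.85 in wild type ventricles (0.89), just at the floor on the brighter array. Psca and Aqp4 were thus higher in both knockout-labelled chambers, whereas Cubn, Slc9a3, Abca4, Prrg4 and Aqp8 reached the floor on the knockout-labelled ventricular array alone of the 4.

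The families of these genes did not share their direction. Of 19 sodium-proton exchanger and anion transporter genes above the floor 6 were positive and 13 negative, with a median of −0.04 and Slc9a3 and Car3 past the fold. Of 26 ABC transporter genes Abca4 was higher and Abcb4 lower, with a median of 0.03. Of 6 genes of the Psca and Ly6 family 2 were positive and 4 negative. Of 4 aquaporin genes above the floor Aqp4 and Aqp8 were higher and Aqp1 (−0.06) and Aqp7 (−0.16) were not past the fold, and the list median of 0.41 turned to −0.11 where both ventricular arrays had to reach the floor. Of 14 markers of kidney, gut and other absorptive epithelium, among them Cdh1, Epcam, Lrp2 and Cldn4, 0 reached the floor on either ventricular array. Cubilin's partner genes Lrp2 and Amn were below the floor in ventricles. Further membrane genes that were higher were the clathrin adaptor gene Epn3 (0.95), the membrane raft gene Mal (0.77), the keratin gene Krt80 (0.76, atria 0.60) and the cadherin gene Cdh20 (0.73). Beside Abcb4 (−1.48) and the glucose carrier Slc2a12 (−0.86), lower transporter genes were the glycine carrier Slc6a9 (−0.65), the iron exporter Slc40a1, or ferroportin (−0.60), and Flvcr2 (−0.67).

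Most genes of the fetal and stressed heart had positive ratios, few of them past the fold. Of 23 such genes above the floor 18 were positive and 5 negative, with a median of 0.23 beside 0.00 over all genes, and the positive share over all genes was 51.2%. Past the fold were Tpm2, Myh7 and Ccn2, higher, and Acta1, lower. These 4 were 17.4% of the list, beside 1.20% of all genes, in a list fixed with earlier results of these data known. Acta1 is by textbook a gene of the same program, so its direction was opposite to that of most of the list. The natriuretic peptide genes were not past the fold, Nppb at 10.56 in knockout-labelled against 10.11 in wild type ventricles (0.45) and Nppa at 11.22 against 11.23 in wild type. The immediate early matrix gene Ccn1 was at 0.42, the smooth muscle actin gene Acta2 at 0.37, the metalloproteinase inhibitor gene Timp1 at 0.39, and periostin, Postn, at −0.34.

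Among stress response genes the metal-binding metallothionein gene Mt2 read 10.19 in knockout-labelled against 8.95 in wild type ventricles (1.24, 2.36-fold higher) and 10.36 against 9.39 in wild type atria (0.97). Its neighbours in the family were at 0.33 (Mt1) and 0.39 (Mt3), and the median of 11 metallothionein and zinc transport genes was 0.17. Of 26 antioxidant targets of NRF2, 19 were positive, 0 passed the fold and the median was 0.16 (0.07 over all 30 measured, with no floor), with Nqo1 (0.43) and Gsta4 (0.36) the highest. Of 21 glucocorticoid-responsive genes 14 were positive and 7 negative, with a median of 0.15, and Mt2 and Glul passed the fold. Fkbp5 (−0.10) and Tsc22d3 (0.01), both classical glucocorticoid targets, were among the 19 not past it.

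Of 20 clock genes Ciart, a repressor of the circadian loop, passed the fold at 5.98 in knockout-labelled against 5.35 in wild type ventricles (0.62). The list median was 0.10, and 15 members were positive and 5 negative. Per2 stood at 0.38, Per1 at 0.23, Arntl at −0.22 and Npas2 at −0.26. Per1, Arntl and Npas2 lay within the central 95% of ratios over all genes (−0.33 to 0.32). The labels do not give the hour at which tissue was taken. None of 18 immediate early genes passed the fold (median 0.11, Ier3 highest at 0.56) and none of 22 heat shock and chaperone genes (median 0.06). Of 24 interferon response genes Iigp1, an interferon-induced GTPase, was lower at 6.39 against 7.31 in wild type ventricles (−0.93). The list median was 0.06, and it turned to −0.06 where the floor was the 75th percentile of all values.

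**Figure D4:**
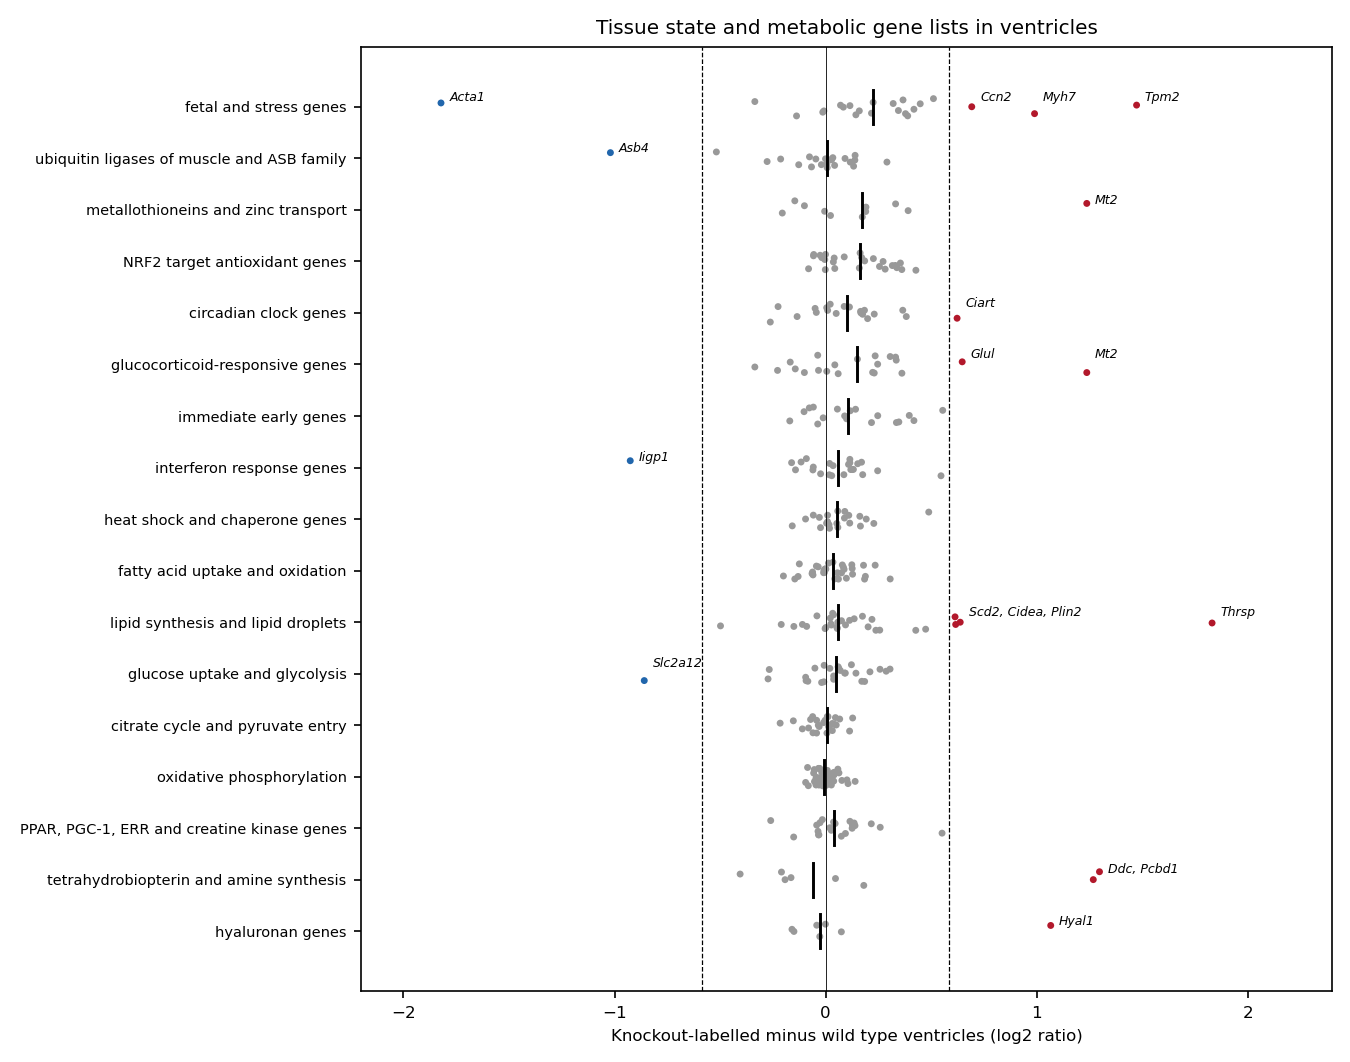
Log2 ratio in ventricles, knockout-labelled minus wild type, of every member above the floor in lists of tissue state and metabolism, 1 row a list, with the black bar at the list median and dashed lines at 1.5-fold. Named points are those past 1.5-fold. Fetal and stress genes have the highest median of the metabolic and state lists at 0.23, and oxidative phosphorylation genes lie in a narrow band around −0.01.

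Sln is also a marker of atrial muscle cells, and most markers of that type had negative ratios in ventricles. Of 8 above the floor 6 were negative, with a median of −0.28: the atrial light chains Myl7 (−0.54) and Myl4 (−0.32), Kcnj3 (−0.46), Tbx5 (−0.25), Nppa (−0.01) and Sln (−0.85). Gja5 (0.51) and Dkk3 (0.39) were positive, and Bmp10, Mybphl, Sbk3 and Hamp were below the floor. The summed signal of the 14 markers in knockout-labelled ventricles was 0.911 times that in wild type ventricles, and its part in the ratio of Sln was not tested. Lymphocyte markers were below the floor in all 9 cases. Of 9 neuron and Schwann cell markers 8 were below the floor, including Th, Dbh, Sox10 and Tubb3, and the exception, Ncam1, was at −0.55. The synaptic genes Snap91 (−0.94), a clathrin assembly protein, and Slitrk4 (−1.10), an adhesion protein, were lower. Slitrk4 read 4.65 in knockout-labelled against 5.75 in wild type ventricles, where it was barely above the floor of 5.71. The part of nerve cells in these ratios was not tested. Sex-linked transcripts were close in both pools, between −0.16 (Kdm5d) and 0.03 (Eif2s3y), with Xist at 9.20 in knockout-labelled against 9.35 in wild type ventricles.

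The nucleus was represented by fewer genes past the fold. Scx, scleraxis, a transcription factor of tendons and heart valves, read 7.34 in knockout-labelled against 6.53 in wild type ventricles (0.81) and 6.57 against 5.59 in wild type atria (0.98). The elongation factor gene Ell2 (0.64), the importin gene Kpna2 (0.65), Bend6 (0.72) and Nabp1 (0.73), a single-strand DNA binding protein, were higher. The homeobox gene Pknox2 (−0.76), the zinc finger gene Zfp385b (−0.94), the splicing factor gene Hnrnpa1 (−0.59) and the noncoding host gene Mir100hg (−0.81, atria −0.67) were lower. Tbc1d9, of the Rab GTPase-activating family, was higher at 6.17 against 5.20 in wild type ventricles (0.97) and 7.21 against 5.73 in wild type atria (1.48), and Gramd1b, a sterol carrier between membranes, was at 0.97 with an atrial ratio of −0.07.

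The remaining higher genes lay between 0.59 and 0.78: Ctla2a (0.78), Pdia5 (0.62), Lrrc52 (0.62), Naa80 (0.60), which acetylates actin, and Tnfrsf23 (0.59). The remaining lower genes past 2-fold or close to it were Armh4 (−1.05, atria −1.56), Pla2g4e (−0.95), a cytosolic phospholipase A2, and Smco1 (−0.93, atria −1.22). Smaller differences were seen for Tgfbr3l (−0.85), the myeloid lectin gene Clec12a (−0.83, atria −0.93), Smim3 (−0.73), Vwa3a (−0.73), Galnt17 (−0.70), Cabcoco1 (−0.67), the cathepsin gene Ctsc (−0.66), Etl4 (−0.65), Tmem47 (−0.64), Mia2 (−0.61), the tubulin gene Tuba1c (−0.60) and Lrrc3b (−0.59). Predicted and olfactory genes, 1 higher and 3 lower, were counted only. Among 1018 probe sets above the floor without 1 symbol, 6 were higher and 9 lower, beside 50 and 67 of the 9712 genes with 1 symbol.

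The fold threshold cut through a continuous range. Just inside it were Tnfrsf23 (0.59), Naa80 (0.60), Lyz1, Scd2 and Ndnf among higher genes, and Hnrnpa1, Fgf16 and Lrrc3b (each −0.59), Slc40a1 and Tuba1c (each −0.60) among lower genes. Just outside were Pde7b and Pcp4 (each 0.58), Prkcd, H2-Q6 and Slc43a2 (each 0.57) on the higher side, and Flt3l, Lilr4b, Dact1, Sned1 and Acsl6 (each −0.58) on the lower side.

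The atrial pair was then read for the same genes, since the 2 pairs share no array. Over the whole atrial pair 10050 genes were above the floor, and 3.03% of them passed 1.5-fold, 1.02% upwards and 2.01% downwards. Of the 67 genes lower in ventricles 53 were above the floor in atria, 48 of them had a negative atrial ratio and 24 passed the fold downwards there. Of the 50 higher genes 39 were above the floor in atria, 31 had a positive atrial ratio and 10 passed the fold upwards. The median atrial ratio was −0.54 for the lower genes and 0.29 for the higher genes. The share of each sign and the median over all atrial genes were not computed, so these sign counts and medians have no baseline beside them. Across the 9436 genes above the floor in both chambers, the ratios of the 2 chambers had a Pearson correlation of 0.36.

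The members differed in how far the chambers matched. The 24 genes lower past the fold in both chambers included Myl1, Casq1, Arhgap20, Abcb4, Mrgprh, Pde7a, Xirp2, Armh4, Asb4, Fgf14, Smco1, Slc2a12, Neb and Tmod4. Acta1 stood at −0.58 in atria, just short of the fold. The 10 genes higher past the fold in both were Psca, Aqp4, Tbc1d9, Mt2, Scx, Ccn2, Ndnf, Gnb3, Thrsp and Krt80. Genes with a ventricular difference and an atrial ratio within 0.10 of 0, both chambers above the floor, included Myh7 (0.02), Hyal1 (0.04), Aldh1b1 (−0.04), Gramd1b (−0.07), Hcn4 (−0.04), Fgf16 (0.05), Snap91 (−0.06) and Slc40a1 (−0.05). If the same mice gave both chambers, a difference between the animals of the 2 pools would appear in both pairs, and the labels do not say whether they did.

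**Figure D5:**
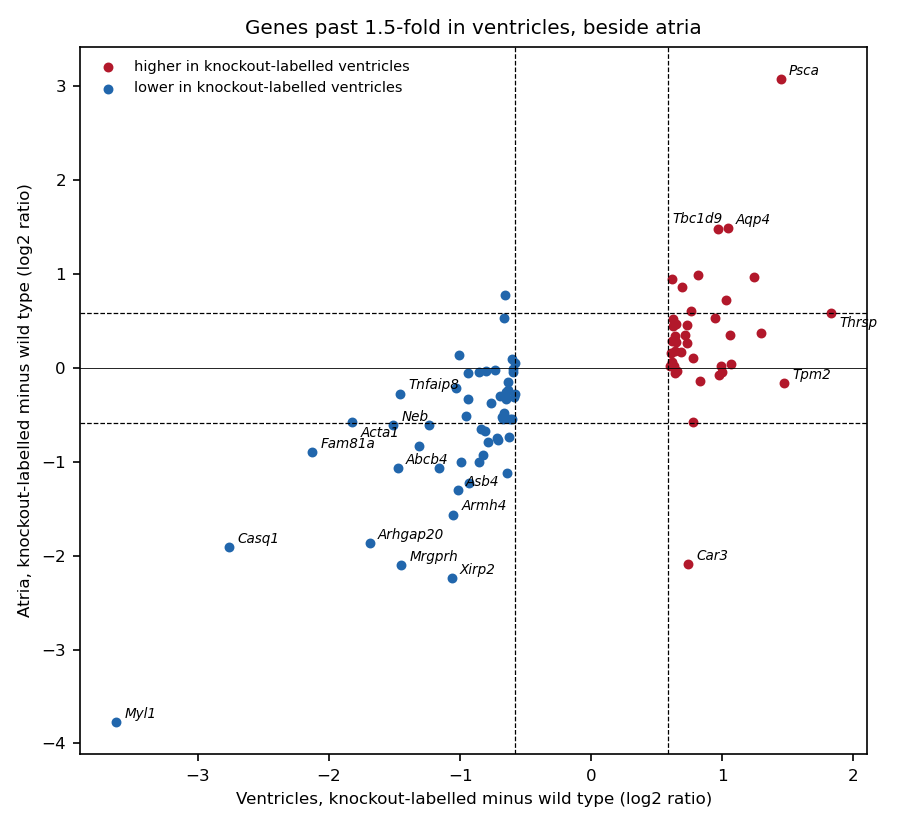
Log2 ratio in ventricles (horizontal) and in atria (vertical), knockout-labelled minus wild type, for the genes past 1.5-fold in ventricles that were also above the floor in atria, 39 higher (red) and 53 lower (blue), with dashed lines at 1.5-fold. Myl1 is lowest on both axes at −3.62 and −3.77, Psca is highest in atria at 3.07, and Car3 lies at 0.74 in ventricles and −2.09 in atria.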

How the data were processed

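Each of the 4 arrays measured total RNA pooled from dissected chambers, labelled with biotin after whole-transcript amplification, per the labels' protocols. The authors deposited 1 log2 intensity for each probe set, made with RMA and the affy package per the submitters' processing notes. RMA corrects background, normalizes across arrays and summarises probes, which compresses differences near background. The sources used here give no tool version, array design or genome build.

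The 21212 probe sets were named through the platform annotation and a RefSeq table (GRCm38.p6): 18786 had 1 symbol, 6 several and 2420 no entry, and of the 18786, 18775 were found in RefSeq through the gene number and 6 through an accession, while 5 retained the annotated name. Where symbols repeated, the probe set with the highest mean was kept, leaving 18781 genes. No count of reads exists for arrays, and their number limits precision. Ratios are differences of the deposited log2 values, with no further normalization. List medians cover members above the floor, and summed linear signals all measured members. Promoter windows came from RefSeq (27025 genes).

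Genes past 1.5-fold were named, except predicted, Rik, small RNA and olfactory genes, along with the list members of largest ratio, Mef2a's neighbours, relatives of named genes and genes at the threshold. The named genes, lists and thresholds were chosen with earlier results of these data known. Alternatives varied the floor, the scaling and the fold. The counting was tested on simulated data with less scatter than the ratios here and with changes placed only in genes well above the floor. That test checks the counting and not the calls. Python 3.11.15, pandas 2.3.3, numpy 2.4.6, statsmodels 0.14.6 and matplotlib 3.10.9 were used.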

Additional observations from a re-analysis of the deposited data

Results flagged for a closer look

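A pair of genes differed past 1.5-fold in opposite directions in the 2 chambers, with 1 array a group, and the difference between chambers was not tested. Car3 had a log2 ratio of 0.74 in ventricles and −2.09 in atria, reading 6.48 in knockout-labelled against 5.74 in wild type ventricles and 5.5 in knockout-labelled against 7.58 in wild type atria. Gm10334, a predicted gene named after its values were seen, had −0.66 in ventricles and 0.78 in atria.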

How the results depend on the processing

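The counts of higher and lower genes, 50 and 67, depended on the floor. They were 99 and 121 with no floor, 22 and 34 where the floor was the 75th percentile of all values, 31 and 40 where both ventricular arrays had to reach the floor, and 14 and 22 at 2-fold. Scaling moved them less: 59 and 60 under median centring, which shifts every ratio by 0.03, 50 and 63 under quantile normalization, and 51 and 67 under lowess centring. Of the 117 genes 8 were no longer past the fold with median centring, 6 with quantile normalization and 0 with lowess. Of 57 list medians 25 changed sign under some alternative. Under the 3 scalings the 14 fibroblast markers all kept negative ratios, and the median of fetal and stress genes lay between 0.23 and 0.25. No paired analysis was possible because each group holds 1 array.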
